A study of Homo sapiens with 10 samples.

Results

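The genes described here encode the enzymes that make purines, pyrimidines and deoxynucleotides, together with 3 enzymes of the folate cycle that supply their carbon. The set was a named list of 29 genes of these routes, and all 29 were found among the 59204 human genes listed. They fell into 7 roles: 2 synthetases of phosphoribosyl pyrophosphate (PRPP), 6 enzymes of the purine ring, 3 that handle inosine and guanosine monophosphate, 5 of pyrimidine synthesis, 6 of deoxynucleotide supply, 4 nucleotide kinases and 3 of folate metabolism. Their RNA was measured in K562, an established chronic myeloid leukaemia line, by SLAM-seq, in which newly made RNA takes up 4-thiouridine and is recognised afterwards by T-to-C conversions in the reads.

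Every culture received its compound for 2 hours and 100 µM 4-thiouridine for the last 1 hour, so the controls carried the nucleoside as well. The 5 groups of 2 libraries were DMSO (the solvent control), 1 µg/mL actinomycin D (a DNA intercalator that stops transcription), 1 µM AZ-5576 (an inhibitor of CDK9, the kinase that releases paused RNA polymerase II), 1 µM JQ1 (an inhibitor of the BET family of bromodomain proteins) and 1 µM A-485 (an inhibitor of the acetyltransferases p300 and CBP). All come from 1 cell line. The labels number the libraries of a group but do not say that they came from separate cultures, so p-values measure only the spread between these libraries, which may be technical. A permutation of 2 libraries against 2 cannot give a two-sided p below 0.33, and the tests below are therefore those of a model fitted across all genes.

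Labelled counts are reads with conversions, total counts are all human reads of a gene, and the labelled share is the first as a percent of the second. Levels are given per spike-in count, from Drosophila RNA added to the purified RNA at 5%. This scales to the amount of RNA taken, so a change in the number of cells or in the RNA per cell would not show. Total human counts were 14916671 to 17918971 per library and spike-in counts 1817677 to 2212752. The erythroid genes expected of K562 were present in all 10 libraries (HBG1 26080 to 33364 total counts, GATA1 2397 to 3169), and MPO of granulocytes and KRT5 of basal epithelium were at 0 in all 10. Of the other markers of foreign cell types, EPCAM had 929 to 1116 counts, LYZ 235 to 329 and CD3E 1 to 9.

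Cells build purines de novo on PRPP, ending at inosine monophosphate (IMP), from which guanine and adenine nucleotides branch. Pyrimidines are built as a free ring that is then joined to PRPP by UMPS, and CTP synthase turns UTP into CTP. Ribonucleotide reductase makes deoxynucleotides, and the folate cycle gives formyl groups to the purine ring and a methyl group to thymidylate. Proliferating blood cells rely on these routes, and several of their enzymes are drug targets in leukaemia. MYC is known to bind many of their promoters at the E-box CACGTG, a letter string that other basic helix-loop-helix factors bind as well.

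Promoter letters are shown because they can be set beside the calls under JQ1. There 15 of 28 tested members were lower, where 28.6% of all genes tested were. Without DHODH, which passed the filter on low counts through DMSO alone, 14 of 27 were lower. Whether the letters bear on these calls was not tested. RefSeq windows (GRCh38.p14, 250 bases before to 50 after a start) were found for 27 of the 29 members, all but ADSL and IMPDH2, and for 17389 genes in all. CACGTG, which reads the same on both strands, was present in 8 of the 27 windows (29.63%) and in 8.54% of all windows. The 17389 windows were not limited to genes expressed in K562, as the members are, and the share over expressed genes was not computed. It occurred 9 times at 8 places, since PPAT and PAICS face away from each other and share a copy. The members were ATIC (2 copies), DCTPP1, DHODH, MTHFD1, MTHFD1L, NME1, PAICS and PPAT. Those of the genes that fell with JQ1 follow, 5′ to 3′ on the gene's strand with 10 bases on either side and the E-box in capitals. Distances are from the RefSeq start. The last is read on the PPAT strand and lies just after the start of PAICS.
ATIC, chr2:215312003-215312028, 46 bases before the start: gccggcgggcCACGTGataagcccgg
ATIC, chr2:215312078-215312103, 30 bases after the start: cctacctgcgCACGTGgtgccgccgc
DCTPP1, chr16:30429794-30429819, 9 bases before the start: agggttcctcCACGTGgtcgggaagc
DHODH, chr16:72008575-72008600, 159 bases before the start: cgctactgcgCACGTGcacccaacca
MTHFD1, chr14:64388328-64388353, 15 bases before the start: agtccctaagCACGTGggttgggttg
NME1, chr17:51153583-51153608, 35 bases after the start: tgctgcgaacCACGTGggtcccgggc
PPAT and PAICS, chr4:56435782-56435807: cggagatttcCACGTGcagcaaatac

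The bases next to the capitals differ from copy to copy. Other letter strings were searched on both strands in the same windows. The CCAAT box (CCAAT) was present in 10 of 27 member windows (37.04%) against 36.28% of all windows. The ETS string CCGGAAG was found in 2 member windows, NME1 and RRM2 (7.407% against 13.16%). The NRF1 consensus palindrome was found in 1, MTHFD1 (3.704% against 1.673%), and the E2F string TTTGGCGC in 0 (against 0.8281%). A match is a description of letters and no evidence of binding, and its absence says only that the letters are not in this window.

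Without drug, the labelled RNA of the 29 genes summed to 1838 and 1815 counts in the DMSO libraries. With JQ1 this sum was 49.2% of DMSO per spike-in count, and the sum over all genes 64.7%. With A-485 the members' sum was 106.1% (all genes 91.4%). AZ-5576 left 3.53% (all genes 12.5%) and actinomycin D 0.295% (all genes 0.303%). By library, JQ1 gave 1071 and 1025 member counts, A-485 1916 and 2216, AZ-5576 64 and 71, and actinomycin D 8 and 4. The summed total RNA of the members was 93.1% of DMSO under actinomycin D (all genes 92.7%), 95.7% under AZ-5576 (97.7%), 88.6% under JQ1 (91.1%) and 98.6% under A-485 (98.1%). No test was made of these sums. With AZ-5576 the median log2 fold change in labelled RNA was -6.42 over the members tested and -5.94 over all genes tested.

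JQ1 lowered the labelled RNA of 15 of the 28 members tested and raised none, and the fallen genes were found in every role but the PRPP synthetases. By edgeR's quasi-likelihood test (Benjamini-Hochberg adjusted p under 0.05 over all 7996 genes tested), 28.6% of all genes were lower and 1.26% higher. Without adjustment (p under 0.05), 16 members were lower and 0 higher. DESeq2 called 13 lower and 0 higher, and of all genes 1958 lower and 86 higher. The median log2 fold change was -1.08 over the members tested and -0.85 over all genes tested. CTPS2, with 8 and 4 labelled counts in DMSO, was the member that did not pass the filter on low counts (10 counts or more in 2 libraries or more). DHODH passed it through the DMSO libraries alone, the group in which it is high, and without DHODH 14 of 27 members were lower. On the TMM scale, which centres the bulk of genes and moves the median of all genes up by 0.83, 7 members were lower and RRM2 was higher, where 5.19% of all genes were lower and 5.55% higher. With a library left out, fewer members and fewer of all genes were called lower in each of the 4 fits. GART, PFAS, ATIC, CAD, CTPS1, DCTPP1, NME1 and NME2 were called in all 4.

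**Figure D1:**
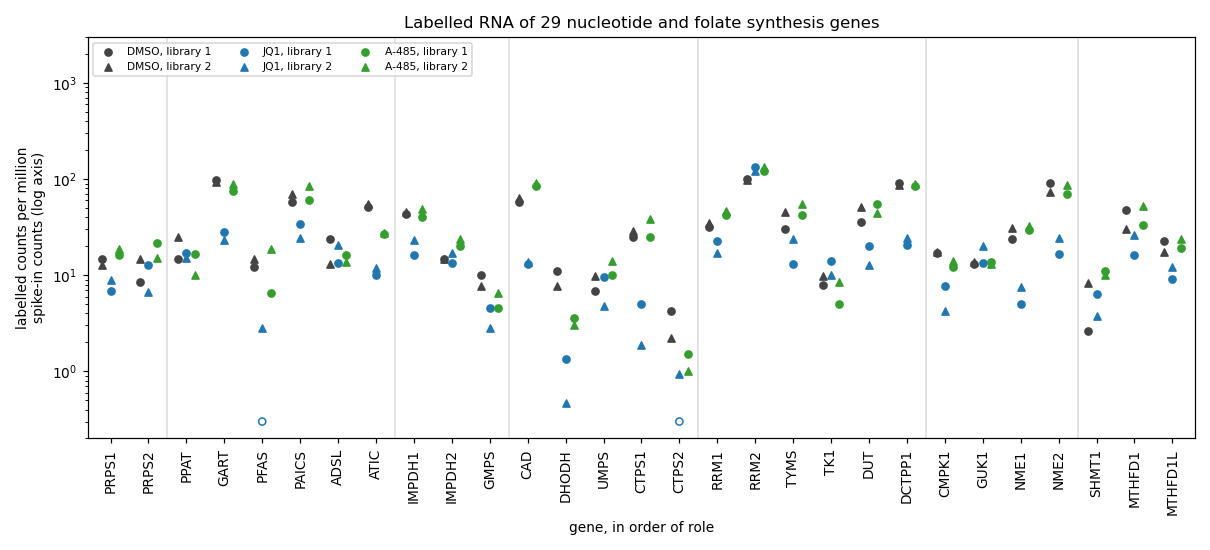
Labelled counts per 1000000 spike-in counts (log axis) of the 29 genes, in order of role, with 1 point per library for DMSO, JQ1 and A-485; open symbols at the bottom stand for libraries with 0 counts, and grey lines part the roles. The JQ1 points of CAD, CTPS1, ATIC and NME1 lie well below those of DMSO, whereas those of RRM2 lie above them and those of IMPDH2 beside them.

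Among the 6 enzymes that build the purine ring, GART, PFAS, PAICS and ATIC fell with JQ1, and PPAT and ADSL did not pass the test. GART (chr21:33503931-33543491), a trifunctional enzyme of several ring steps, had 184 and 171 labelled counts in DMSO, 63 and 49 under JQ1, and 148 and 178 under A-485. The JQ1 libraries lay far below the other 4. GART fell by 1.88 on the log2 scale (SE 0.28, edgeR adjusted p 3.064e-09). ATIC (chr2:215311817-215349773), which closes the ring to IMP, had 97 and 101 counts in DMSO, 22 and 25 under JQ1, and 53 and 55 under A-485. The A-485 libraries lay between those of JQ1 and DMSO, and the 3 groups did not overlap. With JQ1 it fell by 2.29 (SE 0.39, edgeR adjusted p 2.485e-07).

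PFAS, which puts in a ring nitrogen from glutamine, had few labelled reads: 23 and 27 in DMSO, 0 and 6 under JQ1, and 13 and 37 under A-485. PFAS fell by 3.22 with JQ1 (SE 0.78, edgeR adjusted p 0.0005142), and without the JQ1 library that held no read the value was -2.22. The bifunctional PAICS had 109 and 126 counts in DMSO, 75 and 51 under JQ1, and 119 and 168 under A-485. PAICS fell by 1.12 (SE 0.30, edgeR adjusted p 0.001429). That call was lost without DMSO replicate 2 or JQ1 replicate 2 (highest adjusted p 0.06788) and on the TMM scale, where its value was -0.29. GART, PFAS and ATIC remained lower on that scale.

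PPAT, the amidotransferase that commits PRPP to purines, starts 126 bp from PAICS on the opposite strand. It had 28 and 45 labelled counts in DMSO, 38 and 32 under JQ1, and 33 and 20 under A-485, so the groups overlapped (JQ1 against DMSO -0.29, SE 0.47, edgeR adjusted p 0.6675). ADSL had 45 and 24 counts in DMSO against 30 and 44 with JQ1 (-0.11, SE 0.47). The difference between PAICS and PPAT was not itself tested. The DNA between their starts is shown because both genes leave from it, 5′ to 3′ on the PPAT strand, in GRCh38.p14. The line below names the interval in chromosome order, and its letters run from the PAICS side to the PPAT side.
PPAT to PAICS, chr4:56435616-56435740: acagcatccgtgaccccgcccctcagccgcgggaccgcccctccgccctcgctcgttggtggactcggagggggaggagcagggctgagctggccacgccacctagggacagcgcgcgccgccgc
These 125 bases hold neither CACGTG nor CCAAT on either strand.

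The PRPP synthetases supply the ribose phosphate for both ring systems, and neither was called with JQ1. PRPS1 had 28 and 23 labelled counts in DMSO and 15 and 19 with JQ1 (-0.80, SE 0.56), and PRPS2 had 16 and 27 against 28 and 14 (-0.26, SE 0.55). In the step from IMP to GMP, IMPDH1 and its isozyme IMPDH2 gave different results. IMPDH1 had 82 and 83 counts in DMSO, 36 and 49 under JQ1, and 79 and 98 under A-485, and it fell by 1.17 with JQ1 (SE 0.35, edgeR adjusted p 0.006083). IMPDH2 had 28 and 27 in DMSO against 30 and 36 with JQ1 (0.05, SE 0.48), and per spike-in count the groups overlapped. The difference between the isozymes was not itself tested. The IMPDH1 call was lost in 3 of the 4 fits that left out a library (all but the one without JQ1 replicate 2) and on the TMM scale. GMPS, which aminates XMP to GMP, had 19 and 14 counts against 10 and 6 (-1.25, SE 0.80, edgeR adjusted p 0.2226). Its reads are uncertain, since the processed pseudogene GMPSP1 held 1254 to 1718 total counts per library where GMPS held 128 to 186.

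CAD, DHODH and CTPS1 of pyrimidine synthesis fell with JQ1, and CAD and CTPS1 were also lower with JQ1 than with A-485. CAD (chr2:27217390-27243943) carries the first steps of the ring on 1 polypeptide. It had 110 and 115 labelled counts in DMSO, 29 and 29 under JQ1, and 168 and 181 under A-485. The JQ1 libraries were the lowest and the A-485 libraries the highest of the 6, with no overlap. CAD fell by 2.17 with JQ1 (SE 0.33, edgeR adjusted p 4.604e-09), while its A-485 value was 0.54 (SE 0.28, adjusted p 0.3946). CTPS1 (chr1:40979335-41012565), the CTP synthase of dividing lymphoid cells, had 47 and 52 counts in DMSO, 11 and 4 under JQ1, and 49 and 76 under A-485. It fell by 2.93 (SE 0.54, edgeR adjusted p 1.814e-06).

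DHODH, the mitochondrial enzyme that oxidises dihydroorotate, had 21 and 14 counts in DMSO, 3 and 1 under JQ1, and 7 and 6 under A-485. Only its DMSO libraries reached 10 counts, so it entered the test through the group in which it is high. With JQ1 it fell by 3.27 (SE 1.06, edgeR adjusted p 0.01138), a call lost in 3 of the 4 fits that left out a library (all but the one without JQ1 replicate 1) and on the TMM scale. With A-485 its value was -1.498 (SE 0.91, adjusted p 0.545). UMPS, which makes UMP from orotate, had 13 and 18 counts in DMSO and 21 and 10 with JQ1 (-0.23, SE 0.65), with overlapping groups. CTPS2 had 8 and 4 counts in DMSO, 0 and 2 under JQ1, and 3 and 2 under A-485, too few for the test.

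Of the genes that supply deoxynucleotides, TYMS, DUT and DCTPP1 fell with JQ1, and the ribonucleotide reductase subunits RRM1 and RRM2 and the thymidine kinase TK1 were not called. DCTPP1 (chr16:30423619-30430075), a pyrophosphatase that clears dCTP and its modified forms, had 174 and 157 counts in DMSO, 46 and 51 under JQ1, and 167 and 175 under A-485. It fell by 1.99 (SE 0.29, edgeR adjusted p 1.055e-09). The A-485 libraries lay within or beside the DMSO range. DUT, which removes dUTP, had 68 and 94 counts in DMSO against 45 and 27 with JQ1 and fell by 1.39 (SE 0.36, edgeR adjusted p 0.001054). TYMS, the thymidylate synthase, had 58 and 82 against 29 and 50 and fell by 1.04 (SE 0.36, edgeR adjusted p 0.01963). The calls of DUT and TYMS were each lost in 2 of the 4 fits that left out a library, in both cases without DMSO replicate 2, and on the TMM scale. TYMS overlaps TYMSOS and ENOSF1 on the opposite strand, and whether counting used the strand is not given in the sources used here.

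RRM2, the small reductase subunit made in S phase, had 190 and 180 labelled counts in DMSO, 294 and 255 under JQ1, and 242 and 267 under A-485. Both drugs' libraries lay above both DMSO libraries, yet per spike-in count the values were 0.35 with JQ1 (SE 0.22, edgeR adjusted p 0.2227) and 0.37 with A-485 (SE 0.22, adjusted p 0.5339). The TMM value of RRM2 with JQ1 was 1.18 (edgeR adjusted p 6.172e-06). RRM1, the large subunit, had 60 and 63 counts in DMSO, 50 and 36 under JQ1, and 84 and 92 under A-485. Its JQ1 value was -0.74 (SE 0.37, edgeR adjusted p 0.1149). TK1 had 15 and 18 counts against 31 and 21 (0.43, SE 0.62).

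CMPK1, NME1 and NME2 of the 4 nucleotide kinases fell with JQ1. NME2, which passes phosphate between nucleoside diphosphates and triphosphates, had 174 and 134 counts in DMSO, 37 and 51 under JQ1, and 138 and 173 under A-485. NME2 fell by 2.02 (SE 0.30, edgeR adjusted p 1.383e-09). Its neighbour and paralogue NME1 had 45 and 57 counts in DMSO, 11 and 16 under JQ1, and 58 and 65 under A-485, and fell by 2.13 (SE 0.48, edgeR adjusted p 0.0001795), a call lost on the TMM scale (adjusted p 0.06561). In both genes the JQ1 libraries were the low ones and A-485 overlapped or exceeded DMSO. The pair lies in tandem on chromosome 17 and is overlapped by the readthrough gene NME1-NME2, so how reads were shared among them is uncertain. The NME2 pseudogene NME2P1 held 422 to 690 total counts per library, against 10791 to 14185 for NME2.

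CMPK1, the UMP and CMP kinase, had 32 and 32 counts in DMSO, 17 and 9 under JQ1, and 24 and 28 under A-485, and fell by 1.52 (SE 0.57, edgeR adjusted p 0.0318). Its call was lost in 3 of the 4 fits that left out a library (all but the one without JQ1 replicate 1) and on the TMM scale. The guanylate kinase GUK1 had 25 and 25 counts in DMSO against 30 and 43 with JQ1 (0.33, SE 0.50). In the folate role, MTHFD1, the cytosolic trifunctional enzyme that makes formyl folate, had 91 and 55 counts in DMSO, 36 and 55 under JQ1, and 65 and 104 under A-485. It fell by 0.89 (SE 0.36, edgeR adjusted p 0.04626), the weakest of the 15 calls by adjusted p, and kept it in 1 of the 4 fits that left out a library (the one without JQ1 replicate 2). Its mitochondrial counterpart MTHFD1L had 43 and 32 against 20 and 26 (-0.92, SE 0.47, edgeR adjusted p 0.1285), and SHMT1, which moves a carbon from serine to folate, had 5 and 15 against 14 and 8.

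**Figure D2:**
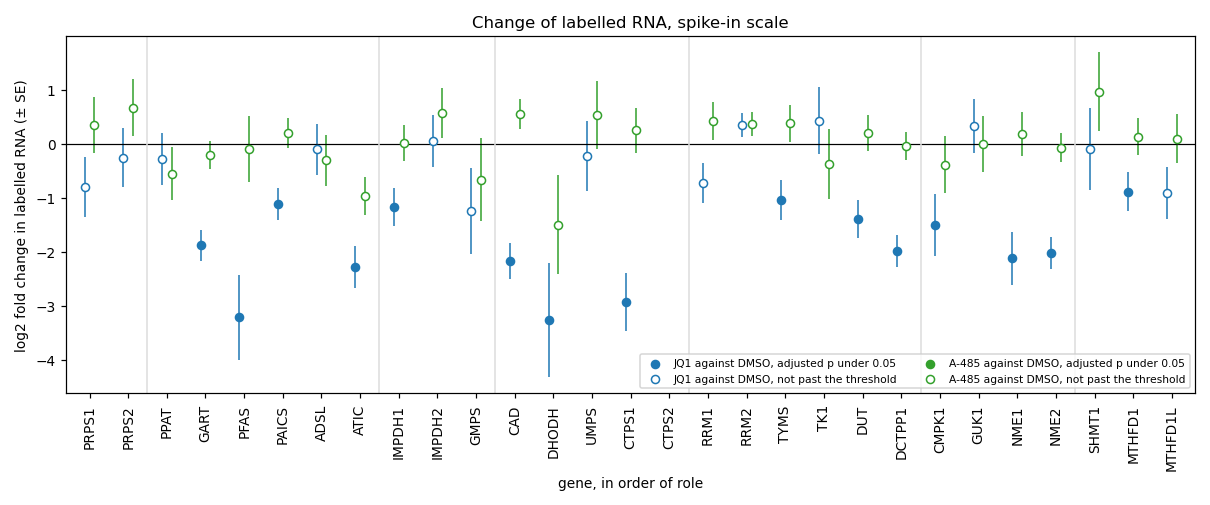
Log2 fold change in labelled RNA against DMSO, with SE bars from edgeR, for JQ1 (blue) and A-485 (green), in order of role; filled points had an adjusted p under 0.05 and open points did not, and CTPS2 was not tested. The 15 filled points are all JQ1 and lie between -3.27 and -0.89, and every A-485 point is open.

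Read against the promoter letters, 6 of the 8 tested members with CACGTG in the window fell with JQ1 (ATIC, DCTPP1, DHODH, MTHFD1, NME1 and PAICS), as did 9 of the 18 tested members whose window lacks it. Of all genes tested, 28.6% were lower, and this share was not computed apart for genes with and without CACGTG. DHODH entered the test through its DMSO libraries alone, the group in which it is high. The calls of DHODH, MTHFD1 and PAICS were each lost in some of the fits that left out a library. These counts are a description and were not tested. Both PPAT and PAICS hold the shared copy, and PAICS was called and PPAT was not.

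No member passed the test in labelled RNA with A-485. By edgeR 0 of 28 were lower and 0 higher, where 4.86% of all genes were lower and 0.163% higher. At unadjusted p under 0.05, 1 member (ATIC, -0.96, SE 0.35, edgeR adjusted p 0.1044) was lower and 0 were higher, and DESeq2 called 0 in either direction. Fitted on the DMSO and A-485 libraries alone, 1 member was lower, where 528 of all genes were lower and 59 higher. The members' median was 0.11 against -0.09 over all genes tested, and 12 of the 28 values were below 0. The TMM scale moves the median of all genes by 0.12 here and gave 0 calls in either direction (4.18% of all genes lower, 0.325% higher).

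Set directly against A-485, JQ1 gave less labelled RNA for 14 of 28 members and more for 0, where 24.8% of all genes were lower and 3.14% higher. DESeq2 called 13 and 0 (1755 and 209 of all genes), and the counts at unadjusted p under 0.05 were 16 and 0. The widest differences were CTPS1 (-3.17, SE 0.53, edgeR adjusted p 1.179e-07), PFAS (-3.12, SE 0.79, adjusted p 0.0008692) and CAD (-2.71, SE 0.32, adjusted p 1.81e-14). The PFAS call was lost without JQ1 replicate 1 and without A-485 replicate 2 (highest edgeR adjusted p 0.1495), and its value ranged from -7.66 to -2.13 over the 4 fits that left out a library. Of the 15 members that fell with JQ1 against DMSO, 13 were also lower here. DHODH and CMPK1 were not, and RRM1 was lower here (-1.16, SE 0.36, edgeR adjusted p 0.008559). The drugs were given at the same dose in µM and for the same time, which does not make their effects on their own targets equal. This comparison and the 2 with DMSO share libraries and are not independent.

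The difference between JQ1 and A-485 was called in all 4 fits that left out a library for 8 members (CAD, PAICS, DUT, GART, CTPS1, DCTPP1, NME1 and NME2). Fewer members were called without JQ1 replicate 1 or without A-485 replicate 2. In all 4 fits fewer of all genes were called lower than with every library. On the TMM scale, which moves the median of all genes by 0.70, 7 members were lower with JQ1 (5.43% of all genes lower, 8.42% higher). RRM2 was higher there (0.69, edgeR adjusted p 0.01659), against -0.02 on the spike-in scale.

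With actinomycin D 28 of the 29 members had 3 labelled counts or fewer over both libraries, all but PAICS (6), and with AZ-5576 21 did. Both drugs lowered all 28 members tested by edgeR and raised 0, where 99.2% of all genes fell with actinomycin D (0% rose) and 94.7% with AZ-5576 (0.2% rose). The counts were the same, 28 lower and 0 higher, at unadjusted p under 0.05 and by DESeq2 for both drugs. With actinomycin D, 23 of the 29 members had 0 labelled counts in both libraries and the whole set had 12. Taking 3 counts over the group as the limit that 0 allows, these 23 were at least 4.51-fold (CTPS2) to 124.5-fold (DCTPP1) lower than DMSO. On the TMM scale, which moves the median of all genes by 0.97 with actinomycin D and 3.25 with AZ-5576, the counts were 5 lower and 0 higher with actinomycin D (7.85% of all genes lower, 0.425% higher) and 12 lower and 1 higher with AZ-5576 (27.6% lower, 5.89% higher).

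AZ-5576 left 135 labelled counts in the set, spread unevenly. It took 12 of the 29 members to 0 in both libraries, which put them at least 6.98-fold (SHMT1) to 129.1-fold (RRM2) below DMSO. GART and MTHFD1 were also among these 12. MTHFD1L kept the most: it had 43 and 32 labelled counts in DMSO and 8 and 17 with AZ-5576, or 31.35% of its DMSO level. It fell by 1.65 on the log2 scale (SE 0.51, edgeR adjusted p 0.001549), and on the TMM scale it was higher by 1.84 (adjusted p 0.003705), the member called higher there. NME2 kept 22 and 15 counts (11.67% of DMSO) and ATIC 3 and 22 (11.54%), the latter mostly from replicate 2. The median member kept 1.024%. Over the members tested the median log2 fold change was -6.42, and over all genes tested it was -5.94.

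The labelled share asks the same question within each library. Its test sets labelled against unlabelled counts of the same gene, so the spike-in drops out. With JQ1 the share fell for 11 of 28 members and rose for 0, where 15.4% of all 7960 genes tested were lower and 0.364% higher by edgeR. The counts at unadjusted p under 0.05 were 15 and 0. All 11 were among the 15 that fell in labelled RNA, and CMPK1, IMPDH1, MTHFD1 and TYMS did not pass. CTPS1 went from 3.27 and 3.30% labelled in DMSO to 0.794 and 0.261% with JQ1, and it had 3.02 and 4.26% with A-485. CAD went from 3.62 and 3.97% to 1.01 and 1.06%, and had 4.92 and 5.40% with A-485. In both genes the JQ1 libraries were below all others of these 3 groups. DESeq2, fitted without scaling, called 4 lower (CAD, DHODH, CTPS1 and NME2) and 0 higher. Of all genes it called 306 lower and 3 higher, where edgeR called 1226 and 29. The edgeR calls of DHODH, PAICS, DUT and PFAS were lost in some of the fits that left out a library. Each such fit also called fewer of all genes lower.

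With A-485 the share of 0 members fell and of 0 rose by edgeR (2.64% of all genes lower, 0.0251% higher). At unadjusted p under 0.05 ATIC and DHODH were lower and 0 higher, and DESeq2 called 0. Here too DHODH entered the test through DMSO alone. ATIC had 1.07 and 1.06% labelled with A-485 against 1.98 and 1.92% in DMSO, and DHODH 1.496 and 1.351% against 5.80 and 4.06%. Their groups did not overlap, and their edgeR adjusted p were 0.208 and 0.2031. Under both actinomycin D and AZ-5576 the share fell for all 28 members (98.6 and 93.6% of all genes lower, 0.0126 and 0.0503% higher) and rose for 0 by edgeR, at unadjusted p under 0.05 and by DESeq2.

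By the main edgeR fit, few members passed the test in total RNA after 2 hours, and UMPS was the member that fell with 3 of the 4 drugs. Of 29 members tested among 14572 genes, edgeR called 2 lower under actinomycin D (19.7% of all genes), 1 under AZ-5576 (12.9%), 1 under JQ1 (7.35%) and 0 under A-485 (1.2%). It called 0 higher in each, against 0.336, 0.782, 0.837 and 0.0343% of all genes. At unadjusted p under 0.05 the lower counts were 4, 5, 9 and 0 in that order and the higher counts 0, and DESeq2 called 1, 1, 4 and 0 lower and 0 higher. The calls changed in a fit with a term for the replicate number (replicate block), which gave 7, 3, 9 and 0 lower and 0 higher. There 25, 15.5, 13.5 and 1.74% of all genes were lower and 0.467, 1.08, 1.08 and 0.0892% higher. In that fit DCTPP1 was lower with the same 3 drugs as UMPS. The members' median log2 fold changes were -0.11, -0.07, -0.20 and -0.02, against -0.27, -0.15, -0.19 and -0.04 over all genes. On the TMM scale, which moves the medians of all genes by 0.25, 0.15, 0.20 and 0.05, the calls with actinomycin D were 1 lower (UMPS) and 4 higher (TK1, TYMS, ADSL and NME2), where 7.91% of all genes were lower and 5.43% higher. With JQ1 they were 0 lower and 1 higher (RRM2), where 1.98% were lower and 1.47% higher.

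UMPS (chr3:124730366-124749273) had 729 and 786 total counts in DMSO. Actinomycin D gave 527 and 582, AZ-5576 530 and 574, JQ1 631 and 557, and A-485 752 and 856. All 6 libraries of the first 3 drugs lay below both DMSO libraries, and A-485 lay around them. Per spike-in count, actinomycin D left 64.8% of the DMSO level, AZ-5576 69.6%, JQ1 67.2% and A-485 99.5%. UMPS fell by 0.63 (SE 0.13, edgeR adjusted p 0.0003372), 0.52 (SE 0.13, 0.003091) and 0.57 (SE 0.13, 0.002492), and its A-485 value was -0.01 (SE 0.12, 0.9996). Without DMSO replicate 2 the calls with AZ-5576 and JQ1 were lost (adjusted p 0.07471 and 0.07874). The TMM value was -0.37 with each of the 3 drugs and the JQ1 call was lost (edgeR adjusted p 0.06258).

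With JQ1 the total counts of UMPS fell, and its labelled counts of 21 and 10 overlapped the 13 and 18 of DMSO. The labelled share sets one measure against the other, and with these few labelled reads it gave 0.34 (SE 0.60, edgeR adjusted p 0.7461). SHMT1 was the other member that fell in total RNA with actinomycin D, from 460 and 514 counts to 420 and 399. It fell by 0.42 (SE 0.15, edgeR adjusted p 0.03972), and the call was lost in 3 of the 4 fits that left out a library, all but the one without DMSO replicate 1.

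CAD and CTPS1, which fell in labelled RNA with JQ1, did not pass the main edgeR test in total RNA against DMSO and did so against A-485. That contrast depends on the fit. Against DMSO, DESeq2 called CAD lower, and the replicate block called both lower. CAD had 3036 and 2897 total counts in DMSO, 2859 and 2740 under JQ1, and 3416 and 3353 under A-485. Per 1000000 spike-in counts these are 1602 and 1594, 1292 and 1297, and 1734 and 1690, so the 3 groups did not overlap. Against DMSO the CAD value was -0.30 (SE 0.10, edgeR adjusted p 0.05064), and against A-485 it was lower by a log2 value of -0.40 (SE 0.10, 0.008018). CTPS1 was -0.27 against DMSO (SE 0.11, edgeR adjusted p 0.1337) and -0.35 against A-485 (SE 0.11, 0.04804).

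Between JQ1 and A-485, total RNA was lower with JQ1 for 3 members (CAD, UMPS and CTPS1) and higher for 0, where 5.38% of all genes were lower and 1.2% higher by edgeR. DESeq2 called 3 and 0, and the counts at unadjusted p under 0.05 were 10 and 0. With the replicate block 6 members were lower and 0 higher, where 8.68% of all genes were lower and 1.58% higher. UMPS differed by -0.57 (SE 0.13, edgeR adjusted p 0.00304). Without A-485 replicate 2 the count was 0 and without A-485 replicate 1 it was 1. With TMM 1 member, UMPS, was lower (2.33% of all genes lower, 1.91% higher).

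**Figure D3:**
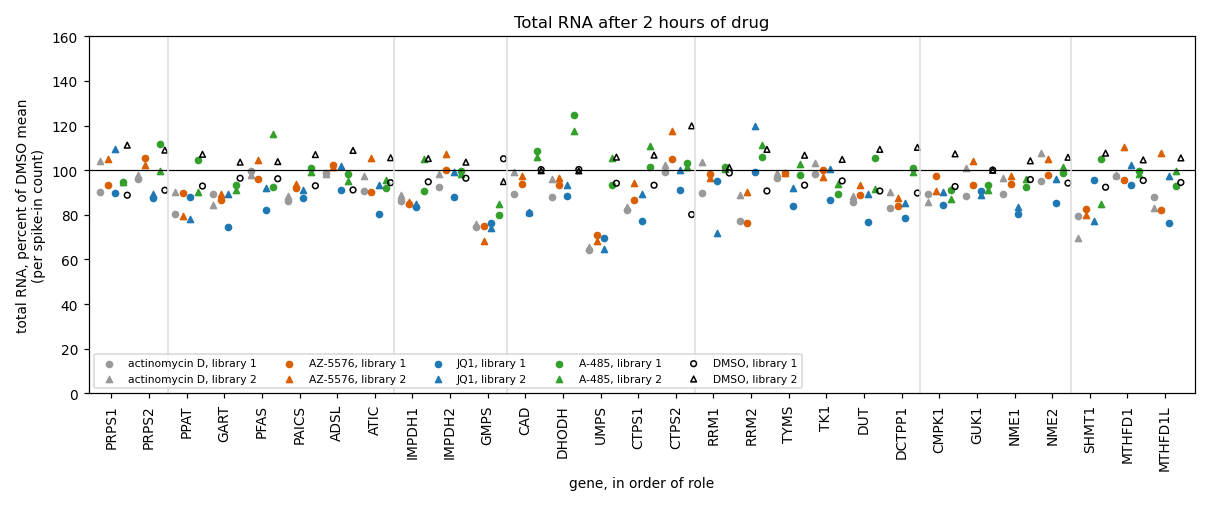
Total RNA per spike-in count of the 29 genes as a percent of the mean of both DMSO libraries, in order of role, with 1 point per library for the 4 drugs and open symbols for DMSO. UMPS lies low under actinomycin D, AZ-5576 and JQ1 (64.8, 69.6 and 67.2% on average) and beside DMSO under A-485 (99.5%).

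Without drug, the share of a gene's reads that carry label after 1 hour differed widely within the set. It was 0.510% for IMPDH2 and 9.46% for GMPS. The GMPS share is uncertain, since in DMSO it held 186 and 161 total counts and its pseudogene GMPSP1 1377 and 1487. Of these, 19 and 14 were labelled in GMPS and 14 and 6 in GMPSP1. The median was 2.37% over the members, against 3.71% over the 10409 genes with a mean of at least 50 total counts in DMSO. The labelled share of 10 of the 29 members lay above the median of all genes. PPAT had 5.92 and 8.60%, the next highest after GMPS, and TK1 had 0.799% on average. The share also depends on how many T positions the sequenced 3′ end holds, so its order among genes is a description.

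The other side of turnover is the total RNA left after 2 hours of actinomycin D. Over the members the median was 92.8% of DMSO, against 84.5% over the same 10409 genes. Below that median lay 5 members (UMPS, SHMT1, GMPS, CTPS1 and RRM2). The GMPS value is uncertain here too, because of the reads held by GMPSP1. NME2 (101.5%) and TK1 (100.8%) were the highest along with CTPS2. Across the 29 members the labelled share and the percent left gave a Spearman rho of -0.58 and a Pearson r of -0.47, and across all genes rho was -0.64. The points share the DMSO libraries, and no test was made. UMPS stood off this trend, with 64.8% left and a labelled share of 1.78 and 2.29%, and SHMT1 likewise with 74.6% left and a share of 1.09 and 2.92%.

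**Figure D4:**
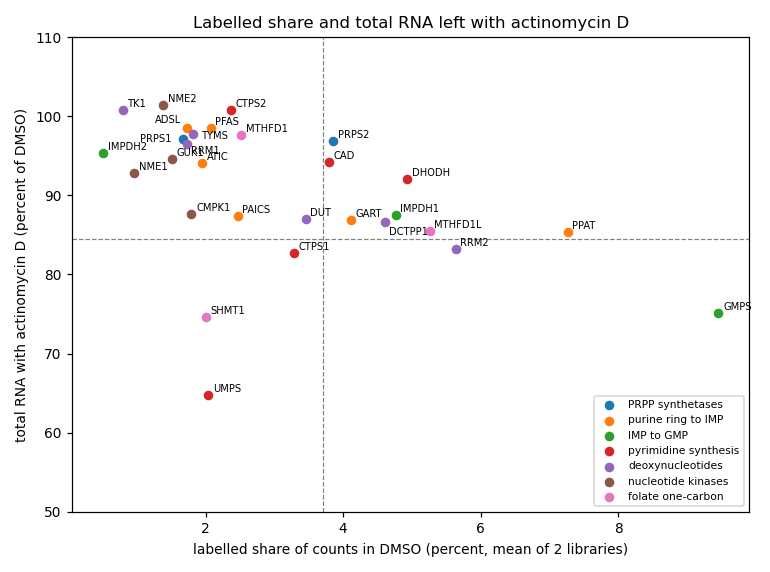
Labelled share of counts in DMSO (percent, mean of 2 libraries) against total RNA left with actinomycin D (percent of DMSO) for the 29 genes, coloured by role, with dashed lines at the medians of all genes, 3.71 and 84.5%. GMPS, whose reads are uncertain, sits at the lower right, IMPDH2, TK1 and NME2 at the upper left, and UMPS and SHMT1 low on the left.

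A further 68 genes of the same pathways (salvage and adenylate enzymes, nucleotidases, deoxynucleoside kinases, and the rest of folate and serine metabolism) were read from the same fits. In labelled RNA 37 of them were tested, and edgeR called all 37 lower under actinomycin D and all 37 under AZ-5576, 14 lower under JQ1 and 2 lower under A-485. Of all genes tested, 99.2, 94.7, 28.6 and 4.86% were lower in that order. None was called higher in these 4 comparisons, where at unadjusted p under 0.05 0, 0, 1 and 1 were higher and DESeq2 called 0. UCK2, the uridine and cytidine kinase of pyrimidine salvage, had 237 and 204 labelled counts in DMSO, 54 and 63 under JQ1, and 246 and 204 under A-485. The JQ1 libraries stood apart, and UCK2 fell by 2.13 (SE 0.26, edgeR adjusted p 3.128e-13). SLC25A32, which carries folate into mitochondria, fell by 1.36 (SE 0.45, edgeR adjusted p 0.01239), and MTRR, which reactivates methionine synthase, by 1.15 (SE 0.41, 0.02225).

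GMPR, which turns GMP back to IMP, was among the 2 genes lower with A-485, and only its DMSO libraries reached 10 labelled counts, so it too entered the test through the group in which it is high. It had 24 and 16 labelled counts in DMSO, 3 and 5 under JQ1, and 1 and 0 under A-485, and fell by 5.10 (SE 1.32, edgeR adjusted p 0.003934). Without GMPR the list gave 13 of 36 lower under JQ1 and 1 under A-485. With JQ1 set against A-485 in labelled RNA, 13 genes of this list were lower with JQ1 and 1 was higher (24.8 and 3.14% of all genes).

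In total RNA 59 of the 68 were tested, and 12 were lower under actinomycin D, 5 under AZ-5576, 7 under JQ1, 0 under A-485 and 4 in JQ1 against A-485, where 19.7, 12.9, 7.35, 1.2 and 5.38% of all genes were. By edgeR 0 were higher in each of these. At unadjusted p under 0.05 3 were lower with A-485, and the higher counts were 1, 1, 0, 0 and 1, and DESeq2 called 0 with A-485 and 0 higher. UCK2 had 2019 and 2203 total counts in DMSO and 1696 and 1797 with JQ1, and it fell by 0.49 (SE 0.11, edgeR adjusted p 0.002868). It also fell under actinomycin D (by 0.53, SE 0.11, 0.000452) and AZ-5576 (by 0.38, SE 0.11, 0.01451). The labelled share fell for 11 of 37 with JQ1 (15.4% of all genes) and 2 with A-485 (2.64%).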

How the data were processed

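K562 RNA libraries were read from 3 deposited tables of raw counts per gene: all human reads, human reads with T-to-C conversions, and Drosophila spike-in reads. The authors did not normalise them, per the file headers and the values (whole numbers, with no gene above its total). Per the labels' protocols, RNA was alkylated with iodoacetamide, received S2 RNA from Drosophila at 5% and went into QuantSeq libraries, which count 3′ ends. Per the submitters' processing notes, the tools were bedtools, Trim Galore 0.6.5 and bcl2fastq 2.17.1.14, with builds hg38 and dm6. For the aligner, the conversion caller and the strand setting, nothing is stated in the sources used here. Positions are those of GENCODE 29 (hg38), which held 55838 of the 59204 human identifiers. Promoter sequences are from RefSeq (GRCh38.p14), with the window nearest the GENCODE start taken for each gene.

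Tests used edgeR 4.0.16 in R 4.3.3 (quasi-likelihood, robust, two-sided). Library sizes were the spike-in totals, the 10 libraries entered 1 fit, and a gene needed 10 counts or more in 2 libraries or more. The labelled fit held 7996 genes, the total fit 14572 and the share fit 7960, each with 5 residual degrees of freedom, and the common biological coefficients of variation were 24.8, 10.9 and 17.8%. P-values were adjusted by Benjamini-Hochberg over all genes tested, with a threshold of 0.05. The share fit took a library's labelled and unlabelled counts as paired columns. SE is the log2 fold change over the square root of the F statistic. The steps were tested on simulated data. Alternatives were TMM, DESeq2 1.42.0, no filter, only the groups compared, a replicate block, and leaving out each library.

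Where a group held no labelled read, the fold was bounded with 3 counts for the group, which covers counting error only, since reads carry no molecular identifiers. All members were named, with counts by library for those called under JQ1 or A-485 in labelled RNA or under any drug in total RNA, and, of the other pathway genes, at most 4 called genes per comparison by DMSO level. The members and gene lists were chosen with earlier results of these data known. The NME1-NME2 readthrough gene was not analysed here. Values of some other pathway and marker genes are not reported here, although the counts over those lists include them.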

Additional observations from a re-analysis of the deposited data

How the results depend on the processing

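Over all comparisons, 3461 values of members were recomputed under the alternatives: 3070 kept their direction and side of the threshold, 124 fell short of it and 37 passed it. The sign changed for 222 values that passed the test in neither fit (77 on the TMM scale and 145 with a library left out) and for 8 that passed it in at least 1. Of 244 counts of members recomputed, 206 stayed within 1.5 times. These 8 were all on the TMM scale: with actinomycin D, PAICS (0.0501) and DHODH (0.21) in labelled RNA and ADSL (0.24) and TYMS (0.22) in total RNA, with AZ-5576, ATIC (0.43), NME2 (0.40) and MTHFD1L (1.84) in labelled RNA, and RRM2 (0.69) in JQ1 against A-485. TMM assumes that most genes do not change and so centres the fall that the spike-in records. The TMM changes of sign without a call included 7 of the 28 members in labelled RNA with JQ1 and 19 of the 29 in total RNA with actinomycin D.

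On the TMM scale, members lower in labelled RNA numbered 5 under actinomycin D, 12 under AZ-5576 (1 higher), 7 under JQ1 (1 higher) and 7 in JQ1 against A-485 (1 higher). In total RNA they numbered 1 with actinomycin D (4 higher), 0 with JQ1 (1 higher) and 1 in JQ1 against A-485. DESeq2 gave 1 lower in total RNA with actinomycin D, 4 in total RNA with JQ1 and 4 in the share with JQ1. In that share it called 306 of all genes lower, against 1226 by edgeR. Without the filter on low counts, 1 was lower in total RNA with actinomycin D. With only the groups compared in the fit, 1 was lower in labelled RNA with A-485 (528 of all genes). There was also 1 in total RNA with actinomycin D (2680 of all genes) and 1 in the share with A-485 (280). The cause of these differences was not tested.

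Leaving out a library gave 8 to 12 lower members in labelled RNA with JQ1 and 8 to 14 in JQ1 against A-485. In total RNA it gave 1 to 5 under actinomycin D, 0 to 2 under AZ-5576, 0 to 2 under JQ1 and 0 to 3 in JQ1 against A-485. In labelled RNA, each of these fits also called fewer of all genes lower than the fit of all libraries. A group left with 1 library is assumed to vary like the others. TMM was not run for the share, whose reference is the same gene.

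The replicate numbers 1 and 2 are shared across groups, but nothing in the labels ties them to a culture or day, and the deviations of same-numbered libraries correlated at -0.016 to 0.075 in labelled RNA and -0.062 to 0.221 in total RNA, over 0.1 in 0 and 6 of the 10 pairs of groups. With the replicate block, members lower in total RNA numbered 7 under actinomycin D, 3 under AZ-5576, 9 under JQ1 and 6 in JQ1 against A-485, where 25, 15.5, 13.5 and 8.68% of all genes were lower, and no other count of members moved by over 1.5 times. Depth limits the labelled counts: PFAS and DHODH, among the members with few labelled reads, had the SE 0.78 and 1.06 with JQ1, and CAD had 0.33.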
